A study of Mus musculus with 6 samples.

Results

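The chaperones of the cytosol and the mitochondrion were followed by gene name across the array. Names were taken that begin with Dnaj, Hspa, Hspb, Hsp90, Bag or Cct followed by a digit or a letter from a to c, together with Hsph1, Hspd1, Hspe1 and Hsf1. Of the chaperones of the endoplasmic reticulum, Hspa5, Hsp90b1, Dnajb9, Dnajb11 and Dnajc3 were left out, as was Dnajc17. The rule sorts by name and not by compartment, so other proteins of the endoplasmic reticulum can remain among the members. This gave 82 of the 34650 gene names on the array, carried by 122 of 55681 probes. The spelling also took in Hspbap1, a protein that associates with HSPB1 and is no chaperone family member. Hspa1b has no name of its own on this design. The 1 probe named Hspa1a carries accessions of both Hspa1a and Hspa1b, so its signal can come from either of these near-identical genes.

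Signals were measured in sorted mouse bone marrow cells that lacked lineage markers and CD48 and carried c-Kit and Sca-1, a gate for haematopoietic stem cells and early progenitors. The groups were wild type (WT, 3 arrays) and Spred1 KO (3 arrays), all of strain C57BL/6, with no treatment. SPRED1 restrains the Ras-ERK kinase cascade that growth factors switch on. The labels give neither the age of the mice nor how the KO allele was built. They do not say whether the 3 samples of a genotype came from separate animals, so the p-values rest on a spread that may be technical.

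Molecular chaperones hold unfolded proteins and let them fold. HSP70 proteins bind exposed hydrophobic stretches under control of J-domain proteins (the DNAJ families), which deliver clients and stimulate ATP hydrolysis, and of nucleotide exchange factors such as the HSP110 and BAG proteins. HSP90 takes over near-native clients such as kinases, the CCT ring folds actin and tubulin, and HSPD1 with its lid HSPE1 folds proteins imported into mitochondria. Heat shock factor 1 (HSF1) drives many of these genes under proteotoxic stress by binding inverted repeats of a short unit in their promoters, and protein synthesis in haematopoietic stem cells is known to be held at a low rate.

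Some of the sequences behind the measurements are shown first, because several results depend on the probe used. The Hspa1a probe (chr17:35107117-35107176, mm9, minus strand) lies in an intronless gene and reads Hspa1a and Hspa1b alike. The second Hsph1 probe (chr5:150420110-150420169, mm9, minus strand) gave the same difference as the brightest one. The 2 dimmer Hspa8 probes (chr9:40611142-40611201 and, spanning a splice junction, chr9:40612755-40613050, mm9, plus strand) gave another sign than the brightest Hspa8 probe. The letters are those of the probes in the deposited files.
Hspa1a probe: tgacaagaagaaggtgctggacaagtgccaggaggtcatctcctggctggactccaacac
Hsph1 second probe: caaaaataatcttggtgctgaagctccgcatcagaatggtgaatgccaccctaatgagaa
Hspa8 probe, dimmest: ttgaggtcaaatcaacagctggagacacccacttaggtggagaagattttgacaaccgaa
Hspa8 probe, spliced: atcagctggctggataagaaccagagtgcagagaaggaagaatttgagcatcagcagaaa

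Promoter stretches are shown for 4 members picked among those that hold the motif given below. They are not the 4 largest differences. Hspd1 differed by -0.24, while Hspb8 (-1.34) and Dnaja1 (-0.70), which hold the motif, and Bag2 (-0.62), which does not, are not shown. The stretches come from RefSeq (GRCm38.p6), and each was cut from a window running from 250 bases before to 50 after a transcript start. Capitals mark paired heat shock units, searched as GAANNTTC or TTCNNGAA. Each of these motifs reads the same on the opposite strand, and overlapping matches were counted.
Hsph1, chr5:149636337-149636414, minus strand: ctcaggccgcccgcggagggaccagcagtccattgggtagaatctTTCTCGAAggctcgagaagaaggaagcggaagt
Hsph1, chr5:149636287-149636316, minus strand: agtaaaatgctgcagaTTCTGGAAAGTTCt
Hspa1a, chr17:34972208-34972305, minus strand: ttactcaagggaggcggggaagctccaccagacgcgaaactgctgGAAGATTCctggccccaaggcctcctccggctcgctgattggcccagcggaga
Hspb1, chr5:135887757-135887874, plus strand: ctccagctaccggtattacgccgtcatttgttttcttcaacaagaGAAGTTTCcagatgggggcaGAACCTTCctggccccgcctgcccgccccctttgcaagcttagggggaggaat
Hspd1, chr1:55088014-55088121, minus strand: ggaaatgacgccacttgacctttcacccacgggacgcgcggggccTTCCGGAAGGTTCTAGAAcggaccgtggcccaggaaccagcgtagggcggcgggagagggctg

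The arrays were close to each other, with Pearson correlations across genes of 0.988 to 0.995 (genes are not independent replicates). The targeted gene has 3 probes, which differed. The probe at chr2:116998491-116998550 (mm9) was brighter in KO by 2.44 ± 0.16 SE on the log2 scale (limma adjusted p = 0.0128), that at chr2:117005906-117005965 was dimmer (-0.98 ± 0.095 SE, adjusted p = 0.0526), and the one between them differed by -0.14 ± 0.10 SE. The labels do not say which part of Spred1 was deleted. Of the 10 genes that mark the gate and its stem and progenitor cells, Kit and Ly6a (Sca-1) among them, all were well above background on all arrays, including Cd48, whose protein was sorted against. Neutrophil markers set WT replicate 1 apart: their summed signal, relative to the 75th percentile of each array, was 102.5 there and 336.7 to 526.9 on the other 5 arrays. Among B cell markers, Pax5 and Ebf1 were not well above background on any array. In RNA from sorted populations, fewer cells of a type and less RNA per cell cannot be told apart.

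Values are log2 signals relative to the 75th percentile of each array, taken from the brightest probe of each gene name, and differences are KO minus WT. To be tested, a gene had to be called well above background by the scanner software on every array of WT, of KO or of both. Of the 82 members, 70 passed that filter, and 68 were well above background on all 6 arrays. Hspa1a and Hspb8 passed through WT alone. The 12 members not tested were Hspa1l, Hspa12a, Dnajb7, Dnajb13, Dnajc5b, Dnajc5g, Dnajc22, Hspb2, Hspb3, Hspb7, Cct8l1 and Hspbap1. Of these, 11 were not well above background on any array, and Hspa12a was so on 1 KO array.

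No member passed the test over all genes. The smallest limma adjusted p among the 70 was 0.361, and 0.0204% of the 19610 genes tested passed. At an unadjusted limma p under 0.05, 18 members (25.7%) were lower and 2 (2.86%) higher in KO, where 5.24% of all genes were lower and 6.97% higher. The 3 KO arrays all lay below the 3 WT arrays for 21 members and all above for 2, against 10.2% and 9.36% of all genes. Of the 70 tested members, 53 (75.7%) had a difference below 0, as 51.7% of all genes did. The median difference was -0.12 over the members and -0.0085 over all genes tested. Hspa1a and Hspb8, which passed the filter only through the genotype in which they were high, are part of these counts. Over the 68 members well above background on all 6 arrays, fitted with the other such genes, 17 were lower and 2 higher at an unadjusted limma p under 0.05 (5.50% and 6.77% of all such genes). These counts describe the members and are no test of the group. An exact permutation test of a single gene with 3 against 3 arrays cannot give a p below 0.1.

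**Figure D1:**
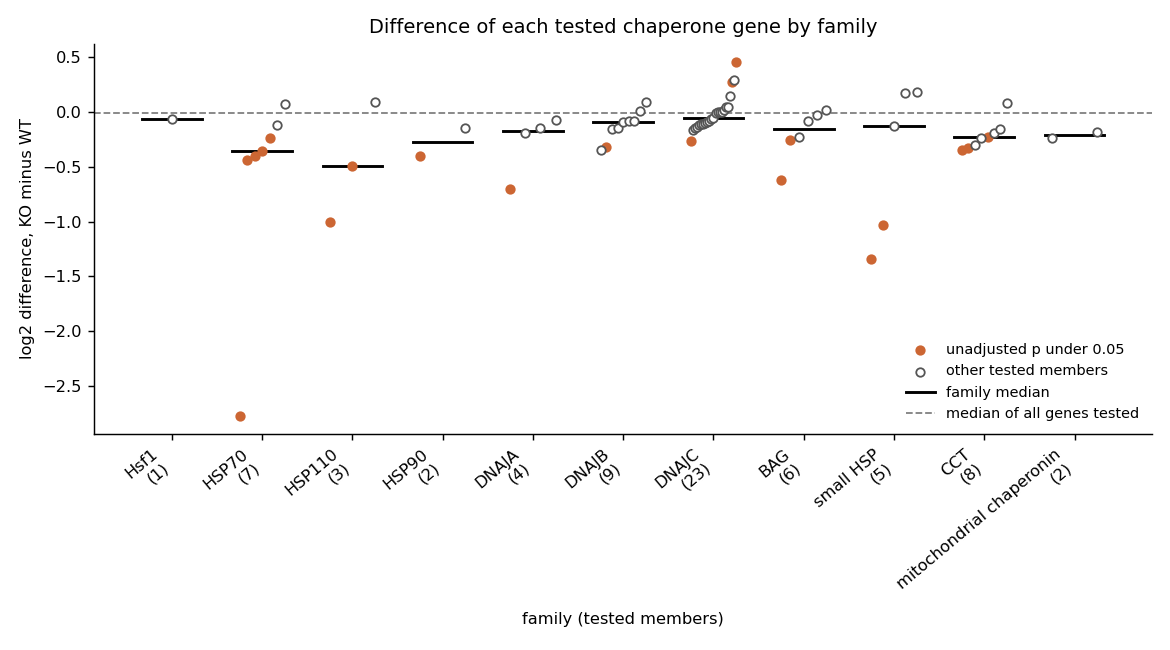
Log2 difference (KO minus WT) of each of the 70 tested members by family, with the number tested in brackets; filled points have an unadjusted limma p under 0.05, black bars are family medians and the dashed line is the median of all genes tested (-0.0085). Of the 10 families of more than 1 gene, all have medians below that line, and the DNAJC members lie closest to it; the median of the small HSPs turns to 0.0211 when genes must be well above background on all 6 arrays.

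The HSP70 family holds the inducible and the constitutive forms of the central folding machine. Of its 9 names, 7 were tested: 6 had differences below 0, 5 of them at an unadjusted p under 0.05, and the median was -0.36. Without Hspa1a, over the 6 well above background on all arrays, 5 were below 0, 4 of them at an unadjusted p under 0.05, and the median was -0.30. For this and the following families, the shares over all genes were 51.7% below 0 and 5.24% lower at an unadjusted limma p under 0.05. Hspa1a, the strictly stress-inducible form, read -2.03, -3.75 and -2.81 in WT and -6.45, -4.70 and -5.75 in KO. All 3 WT arrays were well above background and no KO array was. Against the lowest signal well above background, KO was at least 2.78-fold lower (measured means -2.86 ± 0.86 SD and -5.64 ± 0.88 SD, n = 3 each, limma adjusted p = 0.361). The bound sets the WT mean against, on each KO array, the higher of that lowest signal and the probe's own signal. The probe's own fitted difference, -2.77 ± 0.55 SE, rests on KO signals at background.

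Hspa2, an HSP70 best known from testis, read 0.40, 0.21 and 0.15 in WT and -0.19, -0.14 and -0.24 in KO, a difference of -0.44 ± 0.096 SE (limma adjusted p = 0.363). The groups did not overlap. Hspa12b, an atypical HSP70 known from endothelium, read 1.46, 1.41 and 1.65 in WT and 1.10, 1.10 and 1.26 in KO, a difference of -0.36 ± 0.10 SE. Hspa13 was lower by its brightest probe (-0.40 ± 0.11 SE), while its other probe gave 0.017 ± 0.27 SE. Hspa14, the HSP70 of the ribosome-associated complex, differed by -0.24 ± 0.083 SE. In all 4 genes every KO array lay below every WT array, and none passed after adjustment over all genes (adjusted p 0.363 to 0.381).

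Hspa9, the mitochondrial HSP70, read 3.999, 3.78 and 3.97 in WT and 3.76, 3.94 and 3.70 in KO. The groups overlapped, and the difference was -0.12 ± 0.11 SE (limma adjusted p = 0.638). Hspa8, the constitutive cytosolic HSP70, was measured by 3 probes that went apart. The brightest read 7.83, 7.98 and 8.03 in WT and 8.03, 8.03 and 7.99 in KO, with overlapping groups and a difference of 0.071 ± 0.088 SE (limma adjusted p = 0.732).

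The spliced Hspa8 probe printed above read 7.05, 6.88 and 7.06 in WT and 6.66, 6.77 and 6.63 in KO, a difference of -0.31 ± 0.095 SE in the fit at the level of probes. The dimmest read 5.30, 4.77 and 4.91 in WT and 4.19, 4.63 and 4.21 in KO, a difference of -0.65 ± 0.18 SE. At both of these probes every KO array lay below every WT array (limma adjusted p 0.395 and 0.393 over 27808 probes), so the sign of Hspa8 depends on the probe. Hspa8 was below 0 when the median of its probes was used (-0.31), under quantile normalization (-0.016) and with another background correction added to it (-0.00962).

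The HSP110 proteins exchange nucleotide on HSP70 and help it pull apart aggregates. Hsph1 (HSP105) read 3.88, 3.18 and 3.86 in WT and 2.68, 2.92 and 2.30 in KO. The lowest WT array lay above the highest KO array, and KO was 2.01-fold lower (-1.005 ± 0.24 SE, limma adjusted p = 0.363). Its second probe read 2.46, 1.62 and 2.27 in WT and 1.13, 1.31 and 0.78 in KO, a difference of -1.04 ± 0.24 SE at the level of probes. The 2 probes thus gave differences within 1 SE of each other and ranked the KO arrays alike.

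Hspa4l, a second HSP110, read 1.93, 1.61 and 2.08 in WT and 1.40, 1.51 and 1.23 in KO (-0.49 ± 0.14 SE, limma adjusted p = 0.366, no overlap). Hspa4, the third, had its brightest probe at 4.395, 4.78 and 4.41 in WT and 4.12, 5.03 and 4.71 in KO. KO replicate 2 was the highest array and KO replicate 1 the lowest, and the difference was 0.092 ± 0.24 SE. The other 2 Hspa4 probes differed by -0.22 ± 0.13 SE and -0.36 ± 0.21 SE, with overlap at each. The sign of Hspa4 turned without KO replicate 2 (-0.11) and with the median of probes (-0.22).

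Both cytosolic HSP90 genes lay lower in KO on every array. Hsp90aa1, the inducible form, read 5.89, 5.67 and 5.99 in WT and 5.37, 5.56 and 5.42 in KO, a 1.32-fold lower level (-0.40 ± 0.11 SE, limma adjusted p = 0.366). Hsp90ab1, the constitutive form, read 8.01, 7.96 and 8.14 in WT and 7.82, 7.90 and 7.95 in KO. Its highest KO array lay just below its lowest WT array, and the difference was -0.14 ± 0.089 SE (limma adjusted p = 0.514). Without WT replicate 3 it was -0.093.

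**Figure D2:**
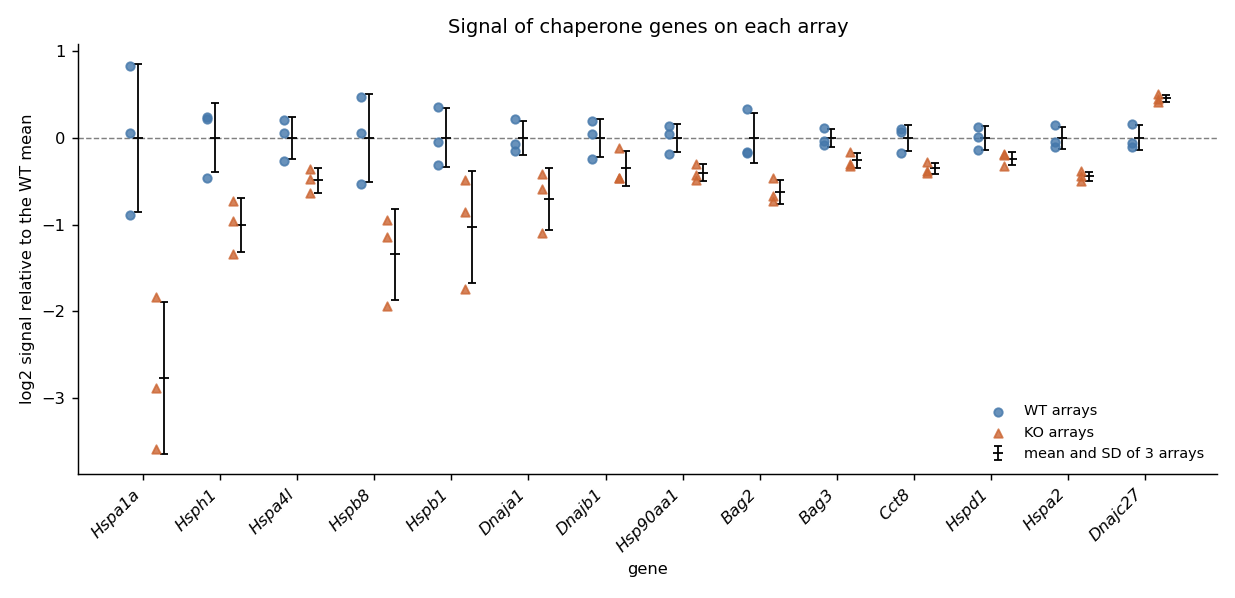
Log2 signal of 14 named members on each array, relative to the WT mean of the gene; circles are WT arrays, triangles KO arrays, and bars the mean and SD of 3 arrays. The KO arrays of Hspa1a, Hsph1, Hspb8, Hspb1 and Dnaja1 lie below their WT arrays, Dnajb1 overlaps, and Dnajc27 lies above.

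The J-domain proteins are given by class, and differences between the classes were not tested. All 4 DNAJA members had differences below 0 (median -0.17), 7 of the 9 DNAJB members tested (median -0.090) and 14 of the 23 DNAJC members tested (median -0.053). Dnaja1 (HDJ2), a general partner of HSP70, read 6.19, 5.83 and 5.90 in WT and 5.39, 5.55 and 4.87 in KO. The groups did not overlap, KO replicate 3 was the lowest array, and KO was 1.63-fold lower (-0.70 ± 0.19 SE, limma adjusted p = 0.366). A dimmer Dnaja1 probe differed by -0.30 ± 0.13 SE, with overlap. Dnaja4 differed by -0.20 ± 0.097 SE without overlap. Dnaja3, the mitochondrial form, differed by -0.15 ± 0.086 SE and Dnaja2 by -0.075 ± 0.080 SE, both with overlap.

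Dnajb1 (HSP40), the classical heat-inducible partner of HSP70, read 5.97, 6.12 and 5.69 in WT and 5.46, 5.81 and 5.46 in KO. KO replicate 2 lay above WT replicate 3, and the difference was -0.35 ± 0.15 SE (limma adjusted p = 0.420). Dnajb2, known from neurons, read 1.59, 1.57 and 1.69 in WT and 1.23, 1.47 and 1.19 in KO (-0.32 ± 0.10 SE, limma adjusted p = 0.375, no overlap). Its dimmer probe differed by -0.68 ± 0.26 SE, with overlap. The remaining 7 DNAJB members tested lay between -0.16 and 0.085, all with overlap.

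The DNAJC members, whose J domains serve many separate tasks, held both members that were higher at an unadjusted limma p under 0.05. At 8.70% of the 23 tested, that is near the 6.97% of all genes that were higher. Dnajc27, a small GTPase with a J domain also known as RBJ, read -2.44, -2.39 and -2.17 in WT and -1.83, -1.91 and -1.89 in KO. Every KO array lay above every WT array, and KO was 1.37-fold higher (0.46 ± 0.099 SE, limma adjusted p = 0.363). Dnajc5 (cysteine string protein), which acts in exocytosis, differed by 0.28 ± 0.097 SE at its brightest probe, without overlap. Its other 3 probes gave 0.57 ± 0.22 SE, -0.13 ± 0.085 SE and -0.56 ± 0.13 SE, so the 4 Dnajc5 probes have no common sign.

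Dnajc12 read 0.74, 0.64 and 0.53 in WT and 0.28, 0.54 and 0.28 in KO (-0.27 ± 0.11 SE, limma adjusted p = 0.404). KO replicate 2 lay within the WT range. Dnajc24, which serves the synthesis of diphthamide, differed by 0.000077 ± 0.087 SE, Dnajc30, of mitochondria, by 0.0018 ± 0.084 SE, and Dnajc1 by -0.0090 ± 0.11 SE. None of the 23 DNAJC members tested had all KO arrays below all WT arrays, and 2 had all above. Of all genes, 10.2% had all below and 9.36% all above.

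**Figure D3:**
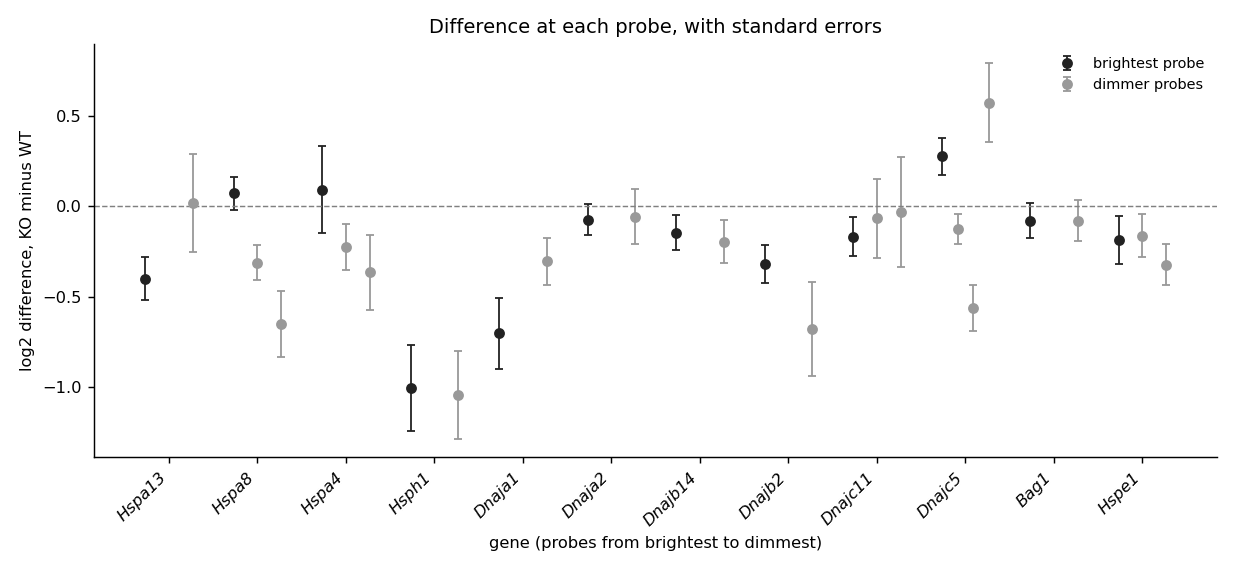
Log2 difference (KO minus WT) with its standard error at each tested probe of the 12 named members that have more than 1, ordered from the brightest probe to the dimmest; black points are the brightest probes. Both Hsph1 probes lie near -1, whereas the Hspa8, Hspa4, Hspa13 and Dnajc5 probes fall on both sides of 0.

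Over the whole membership, 102 probes were tested. None passed after adjustment over all 27808 probes (0.0324% of which passed). At an unadjusted limma p under 0.05, 25 member probes were lower and 4 higher, where 4.85% of all probes were lower and 6.63% higher. Of the 21 members with more than 1 probe tested, 13 had the same sign on all of them and 8 had both signs.

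The BAG proteins dock on HSP70 through a shared domain and release its nucleotide. Of 6 members, 5 had differences below 0 (median -0.16). Bag2, an inhibitor of the ubiquitin ligase CHIP, read 1.36, 0.85 and 0.86 in WT and 0.35, 0.56 and 0.29 in KO, a 1.54-fold lower level without overlap (-0.62 ± 0.16 SE, limma adjusted p = 0.364). Bag3, a heat-inducible guide of selective autophagy, read 1.78, 1.63 and 1.59 in WT and 1.35, 1.503 and 1.37 in KO (-0.26 ± 0.093 SE, limma adjusted p = 0.382, no overlap). Bag1, Bag4, Bag5 and Bag6 overlapped, with differences of -0.23 to 0.012.

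The small heat shock proteins hold unfolded clients without using ATP. Of 8 names, grouped here by spelling alone, 5 were tested, with a median of -0.13. This is the value of Hspb11, with Hspb1 and Hspb8 below it and Hspb6 and Hspb9 above 0. The family median was 0.0211 over those well above background on all 6 arrays and 0.17 with no filter. Hspb1 (HSP25) read 0.62, 0.34 and 1.02 in WT and -1.09, -0.20 and 0.18 in KO. The groups did not overlap, the KO arrays were spread more widely (SD 0.65) than the WT arrays (SD 0.34), and KO was 2.04-fold lower (-1.03 ± 0.33 SE, limma adjusted p = 0.375). Without KO replicate 1 the difference was -0.67. Hspb8 (HSP22), the partner of BAG3, read -1.76, -2.17 and -2.76 in WT and -4.18, -3.18 and -3.38 in KO. It was well above background on all WT arrays and on 2 of 3 KO arrays, and its fitted difference was -1.34 ± 0.33 SE (limma adjusted p = 0.364). That difference includes KO replicate 1, the array not well above background, and was -1.04 without it. Hspb6, Hspb9 and Hspb11 overlapped, with differences of 0.18, 0.17 and -0.13.

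The CCT ring is built of different subunits, each under its own gene name. Of the 8 names tested, 7 had differences below 0, with a median of -0.23. Cct8 read 4.17, 3.89 and 4.13 in WT and 3.68, 3.78 and 3.66 in KO (-0.35 ± 0.10 SE, limma adjusted p = 0.366). Cct3 read 3.38, 3.12 and 3.40 in WT and 2.90, 3.05 and 2.95 in KO (-0.33 ± 0.10 SE, limma adjusted p = 0.372). Both lay lower on every KO array, as did Cct2 (-0.23 ± 0.089 SE) and Cct5 (-0.16 ± 0.074 SE). In Cct8 and Cct3 the WT array nearest to KO was replicate 2 and the KO array nearest to WT was also replicate 2.

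Cct6a (-0.30 ± 0.15 SE), Cct4 (-0.24 ± 0.13 SE) and Cct7 (-0.20 ± 0.11 SE) overlapped. Cct6b, a form of the zeta subunit known from testis, read -2.34, -2.43 and -2.77 in WT and -2.47, -2.45 and -2.38 in KO (0.082 ± 0.13 SE). Its sign turned without WT replicate 3 (-0.047). Tcp1, the alpha subunit, whose name lies outside the rule, differed by -0.28 ± 0.11 SE without overlap (limma adjusted p = 0.403). The 7 subunits that build the ring in most tissues and were caught by name had differences between -0.35 and -0.16, and with Tcp1 the range is the same. Single arrays weighed on 3 of them: without WT replicate 1 Cct6a was at -0.15 and Cct4 at -0.11, and without WT replicate 3 Cct7 was at -0.11.

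Hspd1 (HSP60) and Hspe1 (HSP10) form the mitochondrial chaperonin and its lid. Hspd1 read 5.11, 4.95 and 5.22 in WT and 4.90, 4.91 and 4.77 in KO (-0.24 ± 0.10 SE, limma adjusted p = 0.412, no overlap). Hspe1 read 4.99, 4.89 and 5.28 in WT and 4.99, 4.87 and 4.74 in KO (-0.19 ± 0.13 SE, limma adjusted p = 0.549), with overlap. Without WT replicate 3 Hspe1 was at -0.074. For both genes the highest WT and the lowest KO array were replicate 3 of each genotype, which lie on 1 slide: there the differences were -0.46 and -0.54, and on the other slide -0.13 and -0.012.

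Hsf1, the regulator, read 2.34, 2.29 and 2.54 in WT and 2.29, 2.38 and 2.31 in KO. The groups overlapped, and the difference of its transcript was -0.065 ± 0.096 SE (limma adjusted p = 0.777). The sign turned without WT replicate 3 (0.011). Hsf2 differed by -0.30 ± 0.11 SE (limma adjusted p = 0.382) without overlap. Hsf4 was well above background on 2 arrays of each genotype and Hsf5 on none.

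A list called heat-inducible here was put together irrespective of family: Hspa1a, Hspa1b, Hsph1, Hspa4l, Hspa8, Hsp90aa1, Hsp90ab1, Dnaja1, Dnajb1, Dnajb4, Hspb1, Bag3, Hspd1 and Hspe1. The label is loose, since Hspa8 and Hsp90ab1 are the constitutive forms described above. They differed by 0.071 with overlap and by -0.145 without overlap, and both are part of the counts below. Of the 13 with a name on the array, 12 had differences below 0, 7 of them at an unadjusted limma p under 0.05, and 9 had all KO arrays below all WT arrays. The median was -0.35. Hspa8 by its brightest probe was the exception. Of all genes tested, 51.7% were below 0, 5.24% were lower at that p and 10.2% had all KO arrays below. The list was put together with earlier results of these data known. Without Hspa1a, the other 12 had a median of -0.30, with 11 below 0 and 8 without overlap. The median over these genes, relative to the WT mean of each, was 0.045, -0.15 and 0.10 on the WT arrays and -0.47, -0.18 and -0.43 on the KO arrays. KO replicate 2 therefore lay near WT replicate 2, and the other KO arrays lay lower.

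Promoter windows were found for 65 of the 82 members. A gene with several windows was counted by the window with most matches. The Dnaja1 pair, for example, lies in 1 window, and its other windows hold 0. The paired unit spelled above was present for 20 of them (30.8%), and for 16.97% of 27025 genes with a window. A run of 3 units (GAANNTTCNNGAA or its reverse complement TTCNNGAANNTTC) was present for 4 members, Hsph1, Dnajb6, Hspd1 and Hspe1 (6.15%), and for 0.662% of all genes. Hspd1 and Hspe1 are transcribed away from each other. The Hspd1 window printed above shares 285 bases with that of Hspe1, so that the same match serves both. A further Hspd1 window shares 4 bases with it and holds 0 pairs. In Hsph1 the run of 3 lies after the transcript start. The Hspa1a and Hspa1b windows differ at 4 of 300 bases and hold the same single pair.

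Among tested members with a window, the 17 with a paired unit had a median difference of -0.23, with 14 below 0, and 10 of them had all KO arrays below all WT arrays. Over the 15 of these well above background on all 6 arrays the median was -0.20, with 12 below 0 and 8 without overlap. The 39 without a paired unit had a median of -0.10, with 29 below 0 and 8 without overlap. Of all genes tested, 51.7% were below 0 and 10.2% had all KO arrays below all WT arrays. Bag2 (-0.62), Hspa4l (-0.49) and Hspa2 (-0.44) were among those without the letters in the window, and Dnajc27 (0.46) among those with them. A match is a description of the sequence and not a bound site.

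**Figure D4:**
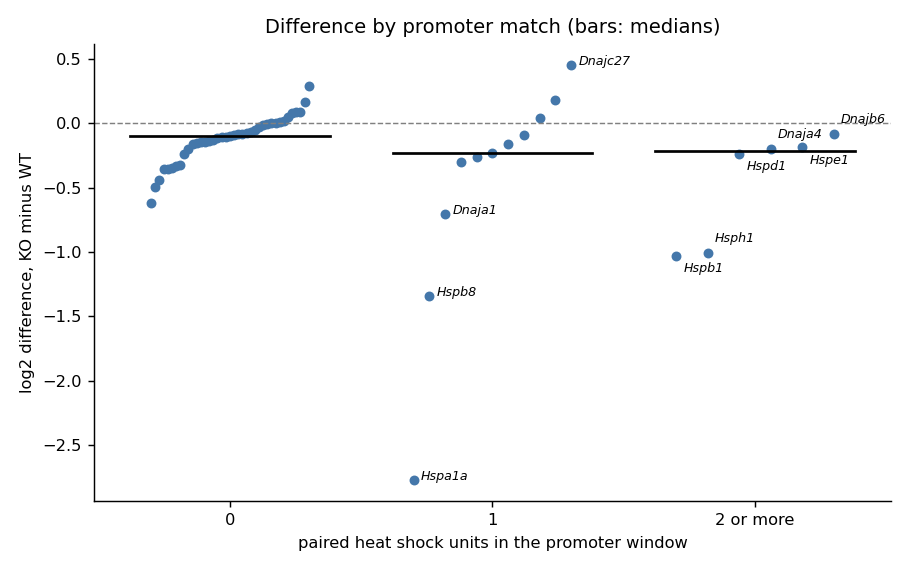
Log2 difference (KO minus WT) of tested members with a RefSeq promoter window, by the largest number of paired heat shock units in any window of the gene. Bars are medians. Of the 6 members with 2 or more pairs, Hsph1 and Hspb1 lie near -1, and Dnaja4, Dnajb6, Hspd1 and Hspe1 between -0.24 and -0.083. Hspa1a, Hspb8 and Dnaja1 hold 1, as does Dnajc27, which lies at 0.46. Hspa1a and Hspb8 passed the filter through WT alone, and the KO signals of Hspa1a lie at background. The median was -0.22 with 2 or more pairs, -0.23 with at least 1 and -0.10 with none.

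Genes that work with the chaperones but lie outside the name rule were read from lists. A list of 23 genes, called co-chaperones here, holds mainly partners of HSP70 and HSP90. Not all are such partners: Hsbp1 and Serpinh1, for example, are not. Of the 23, 21 had differences below 0, 9 of them at an unadjusted limma p under 0.05, and the median was -0.21. For this list and those that follow, the shares over all genes were 51.7% below 0 and 5.24% lower at that p. Fkbp4, an immunophilin of steroid receptor complexes, read 1.75, 1.30 and 1.81 in WT and 0.997, 1.14 and 1.15 in KO (-0.53 ± 0.15 SE). Stip1 (HOP), which links HSP70 to HSP90, read 2.44, 2.03 and 2.57 in WT and 1.84, 1.85 and 1.88 in KO (-0.49 ± 0.15 SE). Chordc1, an HSP90 partner, differed by -0.51 ± 0.15 SE. These 3 genes showed no overlap and had a limma adjusted p of 0.366 each. Ahsa1, the activator of the HSP90 ATPase, differed by -0.38 ± 0.12 SE and Ptges3 (p23) by -0.26 ± 0.10 SE, also without overlap. Fkbp5, a target of glucocorticoids, differed by 0.50 ± 0.41 SE with overlap.

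Among prefoldin and related genes of the CCT pathway, 7 of 9 had differences below 0 (median -0.12), 1 of them, Tcp1, at an unadjusted p under 0.05. Prefoldin subunits Pfdn1 and Pfdn5 differed by 0.046 and 0.019. All 11 mitochondrial quality control genes had differences below 0 (median -0.12), with none at an unadjusted p under 0.05. Grpel2, a nucleotide exchange factor of HSPA9, differed by -0.23 ± 0.11 SE and Trap1, the mitochondrial HSP90, by -0.21 ± 0.10 SE. The 5 endoplasmic reticulum chaperones left out by the rule also had differences below 0 (median -0.24). Among them Hspa5 (BiP) differed by -0.42 ± 0.11 SE without overlap (limma adjusted p = 0.364), and Hsp90b1 (GRP94) by -0.37 ± 0.16 SE with overlap.

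Immediate early genes, which respond to handling of cells as well as to growth factors, varied in another order over the WT arrays and in the same order over the KO arrays as the median of the heat-inducible members. All 14 tested overlapped between genotypes, 13 had differences below 0 (median -0.41), and Dusp1 alone had an unadjusted p under 0.05. Their median relative to the WT mean of each gene was 0.0055, 0.31 and -0.27 on the WT arrays and -0.94, 0.19 and -0.30 on the KO arrays, and their summed signal was 683.6 to 1013 in WT and 482.2 to 973.4 in KO. WT replicate 2 and KO replicate 2 were the highest of their genotype for these genes. For the chaperones WT replicate 2 was the lowest WT array in 45 of 70 members, KO replicate 2 the highest KO array in 33 and KO replicate 3 the lowest in 33. Their part in the chaperone differences was not tested.

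**Figure D5:**
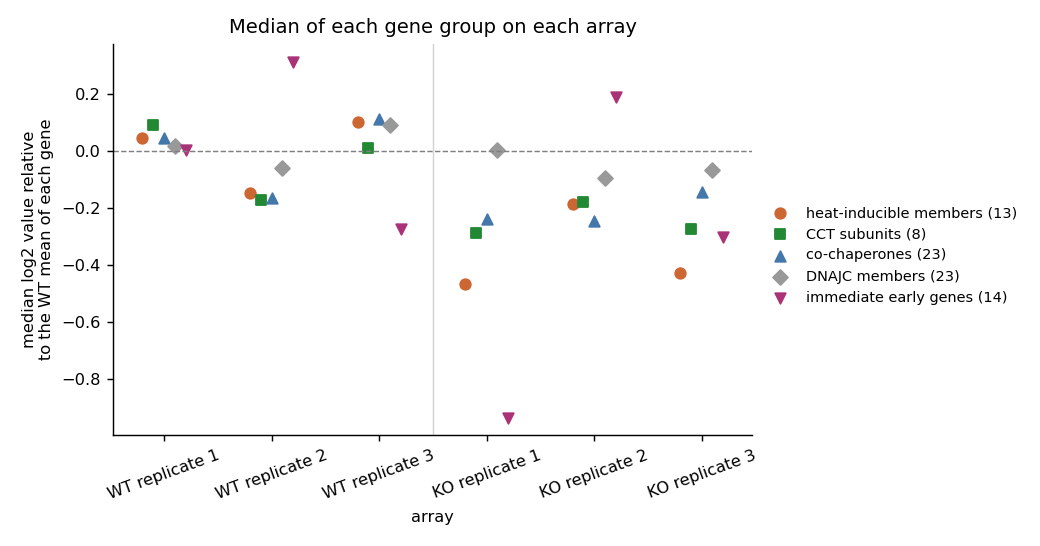
Median log2 value on each array, relative to the WT mean of each gene, for heat-inducible members, CCT subunits, co-chaperones, DNAJC members and immediate early genes, with the number of genes in brackets. The heat-inducible members reach -0.47 and -0.43 on KO replicates 1 and 3 and -0.18 on KO replicate 2, where the immediate early genes stand at 0.19.

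WT replicate 1 was the array lowest in summed neutrophil, monocyte and erythroid markers. Without it, 13 of 70 members were lower and 1 higher at an unadjusted limma p under 0.05, as were 2.90% and 4.96% of all genes. The 12 neutrophil markers all overlapped between genotypes (median difference 0.31). There were 2 slides, scanned separately, with replicates 1 and 2 of both genotypes on slide 1 and replicate 3 of both on slide 2. With slide as a block, 18 members were lower and 2 higher at an unadjusted limma p under 0.05 (4.86% and 6.44% of all genes) and none passed after adjustment (0.0153% of all genes). Within slide 1 alone 8 were lower and 1 higher (2.30% and 3.45%). Hspa1a differed by -2.69 within slide 1 and -2.94 within slide 2, Hsph1 by -0.73 and -1.56, Hspb8 by -1.71 and -0.61, Hspb1 by -1.12 and -0.84, and Dnaja1 by -0.54 and -1.03. No member lay within 10 Mb of the Spred1 probes, and the nearest, Dnajc24, was 11.2 Mb away (mm9).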

How the data were processed

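The labels' protocols state that RNA of sorted cells was labelled with Cy3 by a kit for low RNA input. The deposited scanner files hold 1 intensity per spot, which the file headers say was background-corrected in Agilent Feature Extraction (version 10.7.3.1). In the authors' deposited value table this intensity is divided by 1 constant per array (304.4 to 368.2), on a linear scale and not centred (array medians 0.0638 to 0.0750).

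Each array held 59305 spots other than controls. No spot was saturated, 92 to 155 were left out as outliers, and 52.3% to 53.4% were well above background. The number of arrays limits the precision (median SD between arrays of a genotype 0.131). Spots of a probe were averaged, and log2 of the deposited intensity minus the array's 75th percentile was used. The contrast of KO minus WT was fitted over 19610 genes by lmFit and eBayes (limma 3.58.1, R 4.3.3), with Benjamini-Hochberg adjustment at 0.05, after a check on simulated data.

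Gene names are those of the array. The accessions of 110 member probes were found in the RefSeq table, all under the same symbol. Members and lists were chosen with earlier results of these data known. Named are core members of each family, up to 4 per family and 3 per folding list by smallest p, and every member with an unadjusted p under 0.05. Other members, and the genes of 2 figures, were picked after their values were seen. The result of 1 co-chaperone gene is not reported here.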

Additional observations from a re-analysis of the deposited data

How the results depend on the processing

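No member passed after adjustment in any of the 16 alternatives with a test, and 36 of 43 named members kept their sign in all 17. With the replicate block, 15 members were lower and 1 higher at an unadjusted p under 0.05 (4.44% and 6.44% of all genes), and 0 of all genes passed. Deviations of arrays with the same number correlated at -0.025, 0.15 and 0.071, so the numbers were not taken as pairs. The count of 2 higher members was 1 with the median of probes and within slide 1, where 8 were lower, 27 had all KO arrays below and 7 all above, as had 19.0% and 18.8% of all genes. Leaving out single arrays gave 12 (without KO replicate 1) to 20 lower, 1 to 2 higher, 23 to 36 all below, 2 to 6 all above, and 0 adjusted calls. Of all genes, 2.79% to 6.46% were then lower and 4.23% to 9.09% higher, with 13.7% to 19.4% all below and 11.8% to 19.1% all above.

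Median differences of families moved by more than the spread for HSP70 (-0.36) to -0.311 with the median of probes, -0.298 for genes well above background on all 6 arrays, -0.239 with no filter, -0.32 under quantile normalization and -0.3 with normexp added. For the small HSPs (-0.13) they moved to 0.0211 for genes well above background on all 6 arrays and 0.174 with no filter. Within slide 1 the medians were -0.26 for HSP70, -0.0489 for BAG and -0.0701 for the mitochondrial chaperonin. Within slide 2 they were -0.231 over all members, -0.392 for HSP70, -0.846 for HSP110, -0.377 for HSP90, -0.265 for DNAJA, -0.224 for DNAJB, -0.23 for the small HSPs and -0.497 for the mitochondrial chaperonin. Without single arrays they ran from -0.187 (without WT replicate 2) to -0.0962 over all members, -0.405 to -0.286 for HSP70, -0.204 to -0.0652 (without KO replicate 3) for BAG, -0.185 (without WT replicate 2) to -0.0897 for DNAJB, -0.0867 (without WT replicate 2) to -0.0152 (without WT replicate 1, with -0.0199 without WT replicate 3 and -0.0179 without KO replicate 2) for DNAJC and -0.288 to -0.124 (without WT replicate 3) for the mitochondrial chaperonin. The counts over genes well above background on all 6 arrays for HSP70, heat-inducible members and paired units were added after seeing the data.

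Signs turned with the median of probes for Dnajc5 (-0.0699), Hspa4 (-0.225) and Hspa8 (-0.311), under quantile normalization for Hspa8 (-0.0159) and Cct6b (-0.00092), with normexp and quantile normalization for Hspa8 (-0.00962), within slide 1 for Bag1 (0.0079), Cct6b (-0.0721), Dnajb5 (0.0162), Hsf1 (0.0182) and Hspa4 (-0.0114), and within slide 2, which has 1 array per genotype and no test, for Hspa8 (-0.0416). Without 1 array, Cct6b ran from -0.0465 to 0.169, Hsf1 from -0.115 to 0.0111 and Hspa4 from -0.114 to 0.345. Apart from the left-out arrays and probes, the cause was not tested. Signal near background limits Hspa1a and Hspb8.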
